A study of Mus musculus with 9 samples.

Results

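The NF-kB subunits and feedback inhibitors described here are 10 genes, chosen by name from the 16537 genes of the deposited expression table. All 10 were found there and all 10 passed the filter on low counts. They are the 5 subunits Nfkb1, Nfkb2, Rel, Rela and Relb, the inhibitors and feedback genes Nfkbia, Nfkbie, Bcl3 and Tnfaip3, and the kinase subunit Ikbkb. RNA was sequenced from bone marrow cells of FVB/NJ mice, an inbred strain, in 9 libraries of 3 per group. Hematopoietic progenitor cells (HPC), immature blood-forming cells, were wild type and taken on postnatal day 42. The other groups were leukemic progenitors (LP in the plots) of PML-RAR mice, which carry the fusion gene of acute promyelocytic leukemia, PML joined to a retinoic acid receptor, taken in an early phase (BM-E) or a median phase (BM-M). The age of the PML-RAR mice, the promoter of the fusion and the sorting markers were not stated in the labels. Nor do the labels say whether libraries of 1 group came from separate mice, and every p-value rests on the variation among libraries, part of which may be technical.

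NF-kB proteins are transcription factors that bind DNA as pairs of Rel-family subunits and switch on genes of inflammation and cell survival. In resting cells IkB proteins hold most pairs in the cytoplasm. In the canonical branch, signals from TNF, interleukin 1 and Toll-like receptors activate the IKK kinase, which marks IkB for destruction and frees pairs such as that of the Nfkb1 product with RelA. In the alternative branch, the precursor made from Nfkb2 is processed and pairs with RelB. NF-kB also induces its own inhibitors, which closes a feedback loop. RNA levels report neither the processing of precursors nor the place of proteins in the cell.

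Several of these genes are known NF-kB targets themselves, so the start regions of 3 members that were called and 2 inhibitors that were not are shown. Each spans 130 bases before to 20 bases after the first start site in RefSeq on GRCm38.p6, a patch release of the mm10 build, and is written along the gene's strand. Capitals mark matches to the kappa B consensus on either strand, and overlapping matches run together. The windows are chr19:46304607-46304756 (plus strand) for Nfkb2, chr17:45555570-45555719 (plus strand) for Nfkbie, chr7:19822736-19822885 (minus strand) for Bcl3, chr12:55492628-55492777 (minus strand) for Nfkbia and chr10:19015391-19015540 (minus strand) for Tnfaip3.
Nfkb2: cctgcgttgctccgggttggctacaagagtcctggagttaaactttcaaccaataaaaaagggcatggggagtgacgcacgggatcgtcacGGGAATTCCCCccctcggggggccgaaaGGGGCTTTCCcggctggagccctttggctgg
Nfkbie: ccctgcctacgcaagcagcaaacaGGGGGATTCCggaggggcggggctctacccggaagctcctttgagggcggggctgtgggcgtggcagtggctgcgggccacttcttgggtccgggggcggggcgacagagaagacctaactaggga
Bcl3: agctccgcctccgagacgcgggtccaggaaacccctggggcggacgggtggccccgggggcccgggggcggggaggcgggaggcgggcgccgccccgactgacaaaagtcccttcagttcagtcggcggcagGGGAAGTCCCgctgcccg
Nfkbia: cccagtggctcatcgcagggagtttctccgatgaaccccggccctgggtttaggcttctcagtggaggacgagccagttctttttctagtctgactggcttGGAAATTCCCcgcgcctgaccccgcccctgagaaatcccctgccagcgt
Tnfaip3: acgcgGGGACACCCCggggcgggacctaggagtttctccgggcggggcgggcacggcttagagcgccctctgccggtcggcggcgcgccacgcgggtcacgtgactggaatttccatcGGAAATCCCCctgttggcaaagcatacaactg

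RefSeq start regions (250 bases before to 50 after a start site) were matched for 7 of the 10 members, and 6 of these held the motif: Nfkb2, Rel, Nfkbia, Nfkbie, Bcl3 and Tnfaip3. The other was Rela. Nfkb1, Relb and Ikbkb had no entry. Of all 27025 genes with such a region, 9.55% held the motif. Nfkb2, which was higher in PML-RAR cells, and Bcl3, which was lower, both had a match close to the start, 11 to 2 bases before it in Nfkb2 and at bases 3 to 12 after it in Bcl3. Nfkbia (29 to 20 bases before) and Tnfaip3 (12 to 3 bases before), which did not pass the test against HPC, had one as well. A match describes the letters of a window and is no measured binding site.

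Depth was 20.6 to 28.4 M fragments per library, recovered from the steps of the deposited estimated counts. Levels are given as CPM, counts scaled to library size. The progenitor label of HPC was checked with Kit, at 413 to 459 CPM, and Cd34, at 249.8 to 309.8 CPM. PML-RAR cells held 237 to 253 CPM of Kit and 1.19 to 3.81 CPM of Cd34. The 5 promyelocyte markers summed to 13069 to 14716 CPM in HPC, 34562 to 39550.0 in BM-E and 28367 to 30353 in BM-M. The 6 B cell markers, listed because lymphocytes are rich in several NF-kB members, summed to 14.2 to 16.9 CPM in HPC, 0.435 to 0.878 in BM-E and 1.45 to 2.90 in BM-M, with Pax5 at 0 in every HPC and BM-E library. The 6 monocyte markers summed to 204 to 247, 75.2 to 78.0 and 93.9 to 99.1 CPM, and of 5 tested 4 were lower and 1 higher than in HPC in both phases. Erythroid markers summed to 1127 to 1237 CPM in HPC, 7.97 to 12.3 in BM-E and 137 to 208 in BM-M. All 5 were lower than in HPC in BM-E, and in BM-M 4 were lower and 1, Hba-a1, higher. Most of the HPC sum was Car2, at 941 ± 40.0 CPM in HPC and 4.55 ± 0.322 in BM-M. Most of the BM-M sum was Hba-a1, at 26.3 ± 9.30 CPM in HPC, 3.76 ± 1.67 in BM-E and 156 ± 38.6 in BM-M. The part of such differences in cell make-up in the results below was not tested.

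Compared per length, Nfkb1 RNA stood highest in HPC at 35.3 ± 2.89 FPKM (SD, n = 3; fragments scaled to transcript length and library size). Rela followed at 29.9 ± 3.32 FPKM, Ikbkb at 23.7 ± 0.465 and Nfkbia at 20.4 ± 5.25. Lower levels were those of Nfkb2 at 6.26 ± 0.432 FPKM, Nfkbie at 3.27 ± 0.356, Tnfaip3 at 2.75 ± 0.399, Bcl3 at 2.32 ± 0.491, Rel at 2.09 ± 0.333 and Relb at 0.864 ± 0.0969. In this order the HPC libraries of Nfkb1 and Rela overlapped, as did those of Ikbkb and Nfkbia, and those of each neighbour from Nfkbie to Rel. In BM-E the level of Nfkb1 was 36.9 ± 1.18 FPKM and that of Bcl3, now the lowest, 0.301 ± 0.133. In BM-M these were 34.2 ± 1.997 and 0.410 ± 0.0560 FPKM, and Relb stood at 2.63 ± 0.136.

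**Figure D1:**
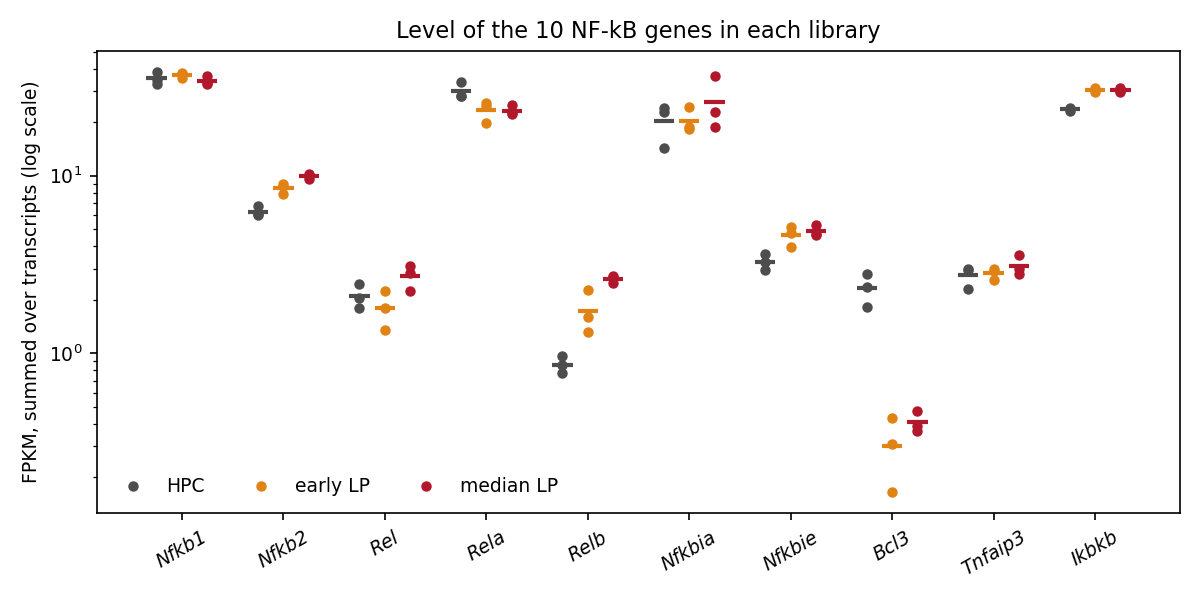
FPKM summed over transcripts (vertical log axis) of the 10 genes in each library (points) with group means (bars), for HPC, early and median leukemic progenitors. Bcl3 lies at 1.81 to 2.79 FPKM in HPC and 0.165 to 0.472 in PML-RAR libraries, and Relb at 0.770 to 0.963 and 1.31 to 2.73.

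Setting BM-E beside HPC addresses how early leukemic cells differ from normal progenitors. Both subunits of the alternative branch, Nfkb2 and Relb, rose, as did the inhibitor Nfkbie and the kinase gene Ikbkb. Rela, the main activating subunit of the canonical branch, and Bcl3, an IkB protein that acts in the nucleus, fell. In all, 4 members rose (background of all genes 35.3%), 2 fell (background 37.9%) and Nfkb1, Rel, Nfkbia and Tnfaip3 did not pass edgeR's quasi-likelihood test at a Benjamini-Hochberg adjusted p of 0.05 over 12837 genes. This is 6 of 10 members called, or 60%, against 73.2% of all genes tested, so the members' share was below the background. The median size of the log2 change, without sign, was 0.35 for the members and 0.54 for all genes, and the signed medians were 0.09 and -0.04.

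Against the same HPC libraries, BM-M again had 4 members higher (background 36%) and 2 lower (background 37.7%), with 73.8% of all genes called. These were the 6 genes named above, each in the same direction. The median size of change was 0.44 for the members and 0.54 for all genes, and the signed medians were 0.41 and -0.04. Because both comparisons share their controls, each is given with its own values. In each, libraries did not overlap between groups for 6 of 10 members, against 74.7% of all genes for BM-E and 75.7% for BM-M.

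**Figure D2:**
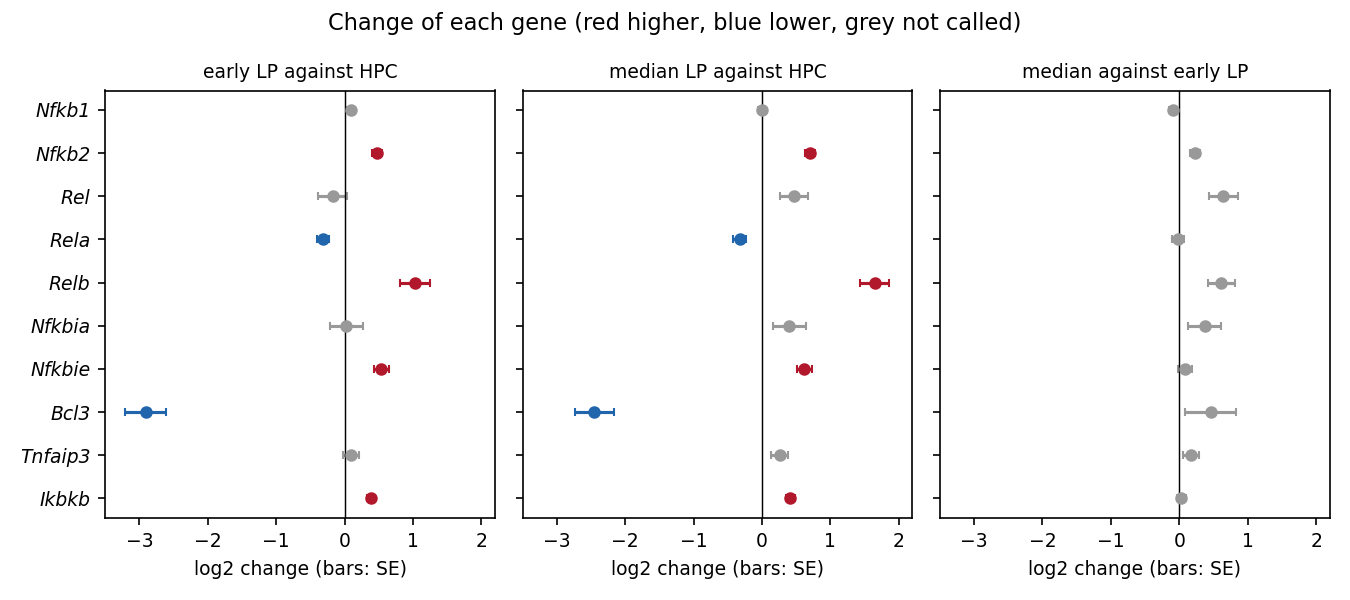
Log2 change of each gene (horizontal axis, bars are SE) in early leukemic progenitors against HPC, median against HPC, and median against early, coloured by whether the gene was called higher, lower or not called. Bcl3 lies at -2.91 and -2.45 against HPC, and no gene is called between the leukemic phases.

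Nfkb2 (mm10, chromosome 19, 46304737 to 46327156) encodes the precursor of the alternative branch. Its levels were 20.6, 20.8 and 22.9 CPM in HPC 1, 2 and 3, 28.4, 31.1 and 29.8 in BM-E 1, 2 and 3, and 33.6, 34.9 and 36.1 in BM-M 1, 2 and 3. All PML-RAR libraries lay above all HPC libraries, and all BM-M above all BM-E libraries. In edgeR the log2 change was 0.47 (SE 0.07, adjusted p = 0.000104) in BM-E and 0.70 (SE 0.07, adjusted p = 3.51e-06) in BM-M. The deposited table places Psd at the same locus, and GENCODE exons of Nfkb2 share 299 bases with Psd and 531 with the non-coding gene AC114539.1, both on the opposite strand. The labels do not say whether counting used strand, so reads within these shared bases may not have been told apart. The part of such reads in the level of Nfkb2 was not tested.

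Nfkb2 is listed with 3 transcripts. The one of 3054 bases held 54.3 to 81.1% of the gene's FPKM in HPC, 74.3 to 80.1% in BM-E and 74.3 to 89.3% in BM-M. The one of 3205 bases held 18.9 to 40.1%, 12.3 to 19.7% and 9.20 to 22.1%. Shares of both transcripts overlapped between HPC and each PML-RAR group. With only the most abundant transcript counted, the log2 change of Nfkb2 was 0.71 (SE 0.17) in BM-E, over 1.5 times the value for the gene. In BM-M it was 0.96 (SE 0.16). Both SE were larger than the 0.07 for the gene.

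Relb (chromosome 7, 19606222 to 19629438) encodes the partner of the processed Nfkb2 product and was the least abundant subunit in HPC. It stood at 1.64, 1.84 and 2.03 CPM in HPC 1, 2 and 3, 2.96, 4.98 and 3.37 in BM-E 1, 2 and 3, and 5.05, 6.15 and 6.15 in BM-M 1, 2 and 3. No library of 1 group reached into another group. The level was 2.05-fold that of HPC in BM-E (log2 change 1.04, SE 0.22, adjusted p = 0.00104 in edgeR) and 3.14-fold in BM-M (1.65, SE 0.21, adjusted p = 1.99e-05). Behind these values stand 42 to 58 recovered fragments per HPC library and 58 to 153 per PML-RAR library. BM-E 2 was the highest of its group, and without it the change in BM-E was 0.79. On the scale of log2(FPKM + 1), which understates the change of low genes, limma gave 0.54 in BM-E and 0.96 in BM-M.

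Rela (chromosome 19, 5637490 to 5648130) encodes RelA, the subunit with a strong activation domain. It stood at 81.0, 79.7 and 92.9 CPM in HPC 1, 2 and 3, 59.3, 75.1 and 69.8 in BM-E 1, 2 and 3, and 68.4, 67.6 and 66.2 in BM-M 1, 2 and 3. All PML-RAR libraries lay below all HPC libraries, BM-E 2 by the narrowest margin. EdgeR gave a log2 change of -0.31 (SE 0.09, adjusted p = 0.00747) in BM-E and -0.33 (SE 0.09, adjusted p = 0.00564) in BM-M, the smallest among the called members in both.

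Nfkb1 (chromosome 3, 135584655 to 135691547), whose product is the usual partner of RelA, was not called in either comparison. Its levels were 165, 170.4 and 182 CPM in HPC 1, 2 and 3, 182, 185 and 184 in BM-E 1, 2 and 3, and 174, 169.9 and 172 in BM-M 1, 2 and 3. Of the HPC libraries, HPC 3 alone reached the range of BM-E, and BM-M lay within the range of HPC. The log2 change in edgeR was 0.09 (SE 0.06, adjusted p = 0.192) in BM-E and -0.0029 (SE 0.06, adjusted p = 0.969) in BM-M. Without HPC 3 the change in BM-E passed the threshold (0.13, adjusted p = 0.0489). In HPC 3 genes with transcripts of at least 4589 bases stood low against those of up to 1575 bases, by a median log2 difference of -0.31, where the other libraries lay between -0.12 and 0.17. The Nfkb1 transcript, of 4118 bases, falls in neither class, and its level in HPC 3 was the highest of the HPC libraries. The part of the length difference in the level of Nfkb1 was not tested.

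Rel (chromosome 11, 23741729 to 23770970) encodes c-Rel, a subunit best known from lymphocytes. It stood at 7.38, 6.24 and 5.03 CPM in HPC 1, 2 and 3, 7.01, 5.39 and 4.12 in BM-E 1, 2 and 3, and 6.87, 9.85 and 9.10 in BM-M 1, 2 and 3. Groups overlapped in every comparison. The log2 change in edgeR was -0.17 (SE 0.21, adjusted p = 0.478) in BM-E and 0.47 (SE 0.21, adjusted p = 0.0584) in BM-M. The change in BM-M passed the threshold without HPC 1 (0.63, adjusted p = 0.0272), without BM-M 1 (0.61, adjusted p = 0.0240), without BM-E 1 (0.47, adjusted p = 0.0385) and without BM-E 3 (0.46, adjusted p = 0.0407). The BM-E libraries enter this comparison through the shared estimate of spread.

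The 5 subunits were also set against each other by their share in the summed FPKM of the family. That sum was 74.4 ± 6.39 FPKM in HPC, 72.5 ± 5.02 in BM-E and 72.7 ± 3.196 in BM-M (SD, n = 3), and the groups overlapped. The share of Nfkb2 was 8.53, 8.47 and 8.27% in HPC 1, 2 and 3, 11.8, 11.8 and 11.8% in BM-E and 13.4, 13.6 and 14.1% in BM-M. Relb held 1.16 ± 0.0537% in HPC, 2.37 ± 0.544% in BM-E and 3.63 ± 0.336% in BM-M. These 2 genes of the alternative branch thus held 9.44 to 9.67% of the family in HPC, 13.8 to 14.8% in BM-E and 16.6 to 17.9% in BM-M. The share of Rela was 40.1 ± 1.05%, 32.3 ± 2.36% and 32.0 ± 0.731% in the same order. For Nfkb2, Relb and Rela the PML-RAR groups did not overlap with HPC, and each exact two-sided permutation test of 3 against 3 libraries gave p = 0.1, the smallest this design allows (adjusted p = 0.18 over 18 tests). Nfkb1 held 47.4 ± 0.725%, 51.1 ± 2.11% and 46.9 ± 0.682%, and Rel 2.85 ± 0.654%, 2.52 ± 0.787% and 3.77 ± 0.740%.

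**Figure D3:**
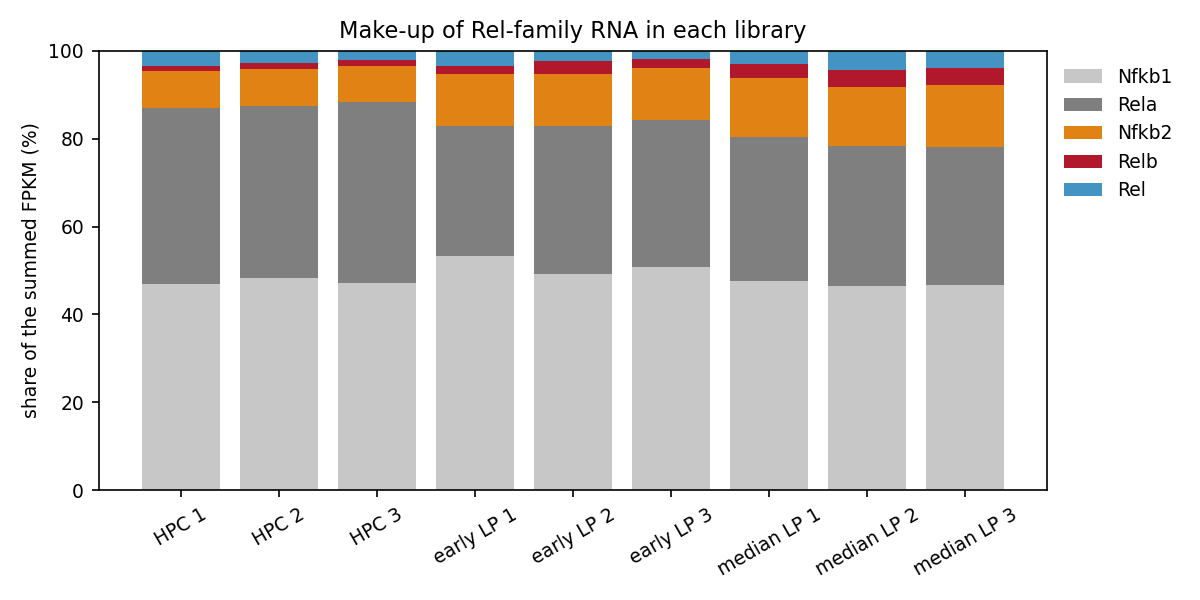
Share of each of the 5 Rel-family genes in their summed FPKM (vertical axis, percent) in each of the 9 libraries (bars). Nfkb2 and Relb together take 9.44 to 9.67% in HPC, 13.8 to 14.8% in early and 16.6 to 17.9% in median leukemic progenitors, and Rela takes 39.2 to 41.3% in HPC and 29.6 to 33.8% in the PML-RAR libraries.

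Bcl3 (chromosome 7, 19808462 to 19822755) changed most of all members. Its protein binds pairs of Nfkb1 or Nfkb2 products in the nucleus, where it can raise or lower transcription. It stood at 2.85, 4.35 and 3.71 CPM in HPC 1, 2 and 3, 0.522, 0.669 and 0.2499 in BM-E 1, 2 and 3, and 0.579, 0.791 and 0.615 in BM-M 1, 2 and 3. Every PML-RAR library lay below every HPC library. The level was 7.51-fold lower in BM-E (log2 change -2.91, SE 0.30, adjusted p = 3.06e-06 in edgeR) and 5.47-fold lower in BM-M (-2.45, SE 0.28, adjusted p = 8.58e-06). Few fragments stand behind it, 5 to 19 per PML-RAR library against 73 to 109 in HPC. With limma on log2(FPKM + 1) the changes were -1.35 and -1.23. On the opposite strand GENCODE lists the antisense gene Gm16175, which shares 161 exon bases with Bcl3. Markers of stem and progenitor cells fell as well, 6 of 6 in both phases, where 37.9% and 37.7% of all genes fell. Their sum was 984 to 1106 CPM in HPC, 259.9 to 260.2 in BM-E and 241 to 259 in BM-M. Most of the sum in PML-RAR cells was Kit, at 437 ± 23.1 CPM in HPC, 251 ± 0.923 in BM-E and 247 ± 8.80 in BM-M. Cd34, Meis1, Flt3, Eng and Gata2 fell by larger factors, Cd34 from 272 ± 32.6 to 3.49 ± 0.294 and 1.44 ± 0.323 CPM. In bulk RNA, fewer cells of a type and less RNA per cell cannot be told apart.

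Bcl3 and Relb lie 179023 bases apart on chromosome 7 and changed in opposite directions. Of 8 genes listed between them 5 were tested, and in both phases 4 of these fell and 1 rose. Among all genes 37.9% fell and 35.3% rose in BM-E, and 37.7% fell and 36% rose in BM-M. Apoe, which encodes apolipoprotein E, stood at 169 ± 29.8 CPM in HPC, 8.23 ± 0.708 in BM-E and 10.4 ± 1.09 in BM-M. Pvrl2, which encodes a nectin cell adhesion protein, stood at 5.01 ± 0.763, 0.338 ± 0.109 and 0.414 ± 0.170 CPM. Tomm40, part of the import pore of the mitochondrial outer membrane, stood at 124 ± 9.13, 76.0 ± 3.55 and 66.1 ± 4.49 CPM, and Clptm1 at 93.9 ± 7.59, 77.9 ± 3.47 and 69.2 ± 1.47. Apoc1 rose, from 0.407 ± 0.0670 CPM to 1.07 ± 0.229 and 0.973 ± 0.234. The interval was chosen after the values of Relb and Bcl3 were known.

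**Figure D4:**
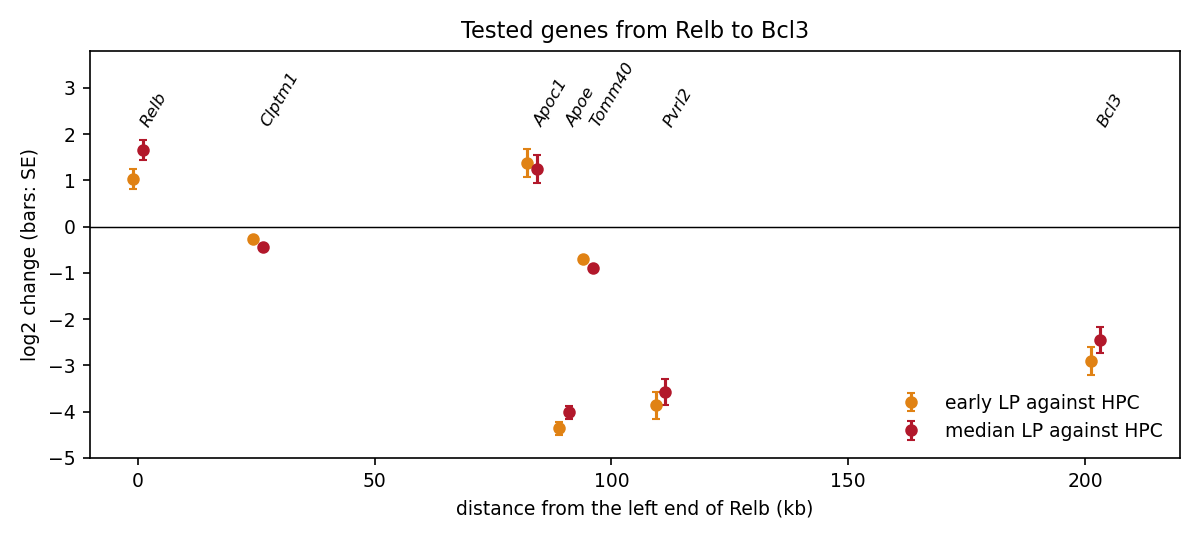
Log2 change against HPC (vertical axis, bars are SE) of the tested genes from Relb to Bcl3 by distance along the chromosome in kb (horizontal axis), for early and median leukemic progenitors. Relb lies above 0 at 1.04 and 1.65, Bcl3 below 0 at -2.91 and -2.45, and 4 of the 5 genes between them lie below 0.

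Nfkbie (chromosome 17, 45555716 to 45563168) encodes IkB epsilon, which holds NF-kB in the cytoplasm. It stood at 9.02, 8.04 and 9.67 CPM in HPC 1, 2 and 3, 11.4, 14.2 and 13.0 in BM-E 1, 2 and 3, and 14.0, 13.7 and 13.3 in BM-M 1, 2 and 3. All PML-RAR libraries lay above all HPC libraries. Its log2 change was, in edgeR, 0.53 (SE 0.11, adjusted p = 0.000887) in BM-E and 0.62 (SE 0.11, adjusted p = 0.000287) in BM-M.

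Nfkbia (chromosome 12, 55489409 to 55492647) encodes IkB alpha, the inhibitor that is destroyed and remade in each round of canonical signalling. It stood at 37.6, 23.5 and 38.3 CPM in HPC 1, 2 and 3, 31.9, 29.6 and 39.9 in BM-E 1, 2 and 3, and 36.5, 32.1 and 62.6 in BM-M 1, 2 and 3. Groups overlapped, with HPC 2 the lowest and BM-M 3 the highest of all libraries. The log2 change in edgeR was 0.03 (SE 0.24, adjusted p = 0.921) in BM-E and 0.40 (SE 0.24, adjusted p = 0.157) in BM-M, and without BM-M 3 the latter was 0.05. Genes of the immediate early response, a list added after these values were seen, also differed within groups. Fos stood at 354, 141 and 252 CPM and Jun at 407, 205 and 320.2 in HPC 1, 2 and 3, both lowest in HPC 2. In BM-E 1, 2 and 3 Fos stood at 133, 113 and 179 CPM and Jun at 184, 158 and 242. Both were lowest in BM-E 2 and highest in BM-E 3, as was Nfkbia. Of the same list, Fosb, Dusp1 and Zfp36 had this order as well. Junb, Ier2 and Atf3 were instead lowest in BM-E 1, and Egr1 was highest in BM-E 1. In BM-M 1, 2 and 3 Fos stood at 38.9, 35.5 and 28.4 CPM and Jun at 57.4, 48.0 and 15.4. Both were lowest in BM-M 3, where Nfkbia was highest. The part of these differences in the level of Nfkbia was not tested.

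The summed FPKM of Nfkbia and Nfkbie, divided by that of the 5 subunits, was 0.371, 0.242 and 0.339 in HPC 1, 2 and 3, 0.341, 0.306 and 0.393 in BM-E and 0.368, 0.333 and 0.581 in BM-M. Groups overlapped, with exact two-sided permutation p = 0.6 for BM-E and 0.5 for BM-M against HPC (adjusted p = 0.675 and 0.6).

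Tnfaip3 (chromosome 10, 19000910 to 19015410) encodes A20, a ubiquitin-editing enzyme that shuts off signalling upstream of IKK. It stood at 17.2, 13.1 and 15.8 CPM in HPC 1, 2 and 3, 17.7, 15.0 and 16.5 in BM-E 1, 2 and 3, and 20.5, 18.0 and 16.7 in BM-M 1, 2 and 3. Groups overlapped in every comparison. The log2 change in edgeR was 0.09 (SE 0.12, adjusted p = 0.508) in BM-E and 0.26 (SE 0.12, adjusted p = 0.0661) in BM-M. The latter passed the threshold without HPC 1 (0.37, adjusted p = 0.0236), without BM-M 3 (0.32, adjusted p = 0.0407) and with only the main transcript counted (0.39, adjusted p = 0.0495). That transcript, of 4422 bases, held 79.2 to 92.1% of the gene's FPKM in HPC, 73.1 to 99.999% in BM-E and 79.8 to 99.998% in BM-M.

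Ikbkb (chromosome 8, 22659205 to 22706583) encodes IKK beta, the kinase that marks IkB alpha for destruction. It stood at 117, 113 and 111 CPM in HPC 1, 2 and 3, 152, 150.5 and 143 in BM-E 1, 2 and 3, and 144, 151 and 159.8 in BM-M 1, 2 and 3. All PML-RAR libraries lay above all HPC libraries. In edgeR its log2 change was 0.39 (SE 0.06, adjusted p = 0.000166) in BM-E and 0.42 (SE 0.06, adjusted p = 9.19e-05) in BM-M. Over the 706 tested genes of chromosome 8 the median log2 change was 0.53 in BM-E and 0.51 in BM-M, so Ikbkb differed from the median of its chromosome by -0.14 and -0.10. The chromosomes of the other members had medians of -0.12 to -0.0032. The transcript of 3592 bases held 87.2 to 93.1% of the FPKM of Ikbkb in HPC, 92.6 to 93.8% in BM-E and 88.0 to 90.4% in BM-M.

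Setting BM-M beside BM-E addresses what changes between the phases of the disease. No member passed edgeR's test, 0 of 10 against 2.48% of all genes (1.48% higher and 0.997% lower), and none passed DESeq2's. At an unadjusted p under 0.05 there were 3 members with each tool, which were Nfkb2, Rel and Relb in edgeR. The share of all genes under that unadjusted threshold was not counted, so this number has no background beside it. For these 3 members the adjusted p stayed above 0.05. Their log2 differences in edgeR were 0.23 (SE 0.07, adjusted p = 0.137) for Nfkb2, 0.64 (SE 0.21, adjusted p = 0.148) for Rel and 0.61 (SE 0.20, adjusted p = 0.139) for Relb. Libraries did not overlap between groups for 3 members, Nfkb2 and Relb, which were higher in BM-M, and Nfkb1, which was lower, against 26.1% of all genes. The log2 difference was -0.10 (SE 0.06) for Nfkb1, 0.37 (SE 0.24) for Nfkbia, 0.46 (SE 0.38) for Bcl3 and 0.17 (SE 0.12) for Tnfaip3. For Rela it was -0.01 (SE 0.09), for Nfkbie 0.08 (SE 0.11) and for Ikbkb 0.03 (SE 0.06).

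Likeness of pattern was described by the root mean square difference of log2 CPM, centred on each gene's mean, over the 9 libraries, where 0 is the same pattern. Nfkb2 and Nfkbie were each other's nearest member at 0.0921. Nfkb2 was also the member nearest to Relb (0.334) and to Ikbkb (0.137). The member nearest to Bcl3 was Rela, at 0.811. Among all tested genes the nearest to Nfkb2 were Fads1 (0.0627), Rdh11 (0.0671) and Habp4 (0.0677), and to Nfkbie Vps18 (0.0651), 2410016O06Rik (0.0653) and Rassf1 (0.0655). Nearest to Relb were Pi15 (0.148), Gm129 (0.152) and Dpep2 (0.172), and to Bcl3 Tbc1d9 (0.152), Rusc2 (0.158) and Ssh1 (0.171). Rela had Cdc34 (0.0360), Cd151 (0.0425) and Akt2 (0.0438) as nearest genes, and Ikbkb had Zfp41 (0.0366), Brd9 (0.0420) and Msn (0.0426). For members that were not called against HPC, these were Ddx19a (0.0267), Ppm1a (0.0268) and Cat (0.0318) for Nfkb1, Uprt (0.0865), Zbtb26 (0.135) and Prdm9 (0.146) for Rel, Ms4a6d (0.169), D4Wsu53e (0.198) and Ctnnd2 (0.203) for Nfkbia and Chmp1b (0.0666), Siah1a (0.0897) and Zfp963 (0.0910) for Tnfaip3. No member was among the 3 nearest genes of another.

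The rest of the pathway was taken as 5 lists by role with 117 genes, of which 102 were tested. In BM-E 58 of these rose and 21 fell, and in BM-M 61 rose and 18 fell. The share called was 77.5% in each, against 73.2% and 73.8% of all genes. The median log2 change over these genes was 0.48 and 0.49, against -0.04 over all genes in both. By list the median was 1.27 and 1.33 for receptors, 0.87 and 0.95 for ligands, 0.52 and 0.53 for other inhibitors, 0.56 and 0.32 for targets, and 0.13 and 0.19 for kinases and adaptors. The share called in BM-E and BM-M was 85% and 85% of receptors, 71.4% and 85.7% of ligands, 84.2% and 78.9% of other inhibitors, and 85.2% and 77.8% of targets. By direction, 35.3% of all genes rose and 37.9% fell in BM-E, and 36% rose and 37.7% fell in BM-M. These shares are the background for the counts above and for each list below.

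Among receptors, upstream of Ikbkb, 14 of 20 rose and 3 fell in each phase. The background was 35.3% higher and 37.9% lower in BM-E, and 36% and 37.7% in BM-M. Tlr4, the receptor for lipopolysaccharide, rose from 10.4 ± 2.42 CPM in HPC to 87.8 ± 7.47 in BM-E and 117 ± 1.21 in BM-M. Tlr7, which senses single-stranded RNA, rose from 2.63 ± 0.479 to 38.8 ± 1.98 and 44.2 ± 0.926 CPM. Tnfrsf1a, a receptor of TNF, rose from 73.2 ± 5.02 to 199.6 ± 6.04 and 186 ± 6.72 CPM. Il1rl1, the receptor of interleukin 33, fell from 41.3 ± 6.26 to 0.563 ± 0.126 and 0.246 ± 0.0957 CPM. Cd40, Tnfrsf11a and Tlr9 did not pass the filter on low counts.

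Of 7 tested ligands 4 rose and 1 fell in BM-E, and 5 rose and 1 fell in BM-M. Tnf rose by 1.19 (SE 0.18) and 1.42 (SE 0.18) on the log2 scale. Tnfsf13b, which encodes BAFF, a ligand that feeds the alternative branch in B cells, rose from 2.23 ± 0.218 to 22.7 ± 0.769 and 19.1 ± 2.17 CPM. Tnfsf14, a ligand of the lymphotoxin beta receptor, rose from 8.67 ± 0.926 to 15.9 ± 1.80 and 15.7 ± 0.773 CPM, while Il18 fell from 1.99 ± 0.5001 to 0.422 ± 0.0758 and 0.487 ± 0.118 CPM.

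Of the 29 kinases and adaptors 12 rose and 6 fell in BM-E, and 14 rose and 6 fell in BM-M. This is 62.1% and 69.0% called, below the 73.2% and 73.8% of all genes. The partners of Ikbkb in the IKK complex were not called: Chuk, which encodes IKK alpha, had log2 changes of -0.07 (SE 0.08) and 0.03 (SE 0.08), and Ikbkg, which encodes the scaffold NEMO, -0.04 (SE 0.06) and 0.06 (SE 0.06). Map3k14, the kinase that starts processing of the Nfkb2 precursor, was at 0.12 (SE 0.14) and 0.09 (SE 0.14) and was not called either. These 3 were named after their values were seen. Card9, an adaptor of fungal receptors, rose by 1.36 (SE 0.10) and 1.30 (SE 0.10), and Ripk1, a kinase below the TNF receptor, by 0.83 (SE 0.06) and 0.87 (SE 0.06). Myd88, the adaptor of Toll-like and interleukin 1 receptors, rose by 0.86 (SE 0.07) and 0.87 (SE 0.07), and Map3k8 by 1.70 (SE 0.14) and 1.83 (SE 0.14). Irak2, a kinase of the same receptors, fell from 14.5 ± 0.961 to 5.22 ± 0.119 and 9.83 ± 1.78 CPM.

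Of 19 other inhibitors 14 rose and 2 fell in BM-E, and 14 rose and 1 fell in BM-M. Cyld, a deubiquitinase that restrains IKK, rose from 59.9 ± 7.29 to 119.6 ± 1.86 and 126 ± 2.86 CPM. Tax1bp1, a partner of A20, rose by 0.77 (SE 0.07) and 0.68 (SE 0.07) on the log2 scale, N4bp1 by 1.29 (SE 0.10) and 1.46 (SE 0.10), and Zc3h12a, an RNase that destroys inflammatory messages, by 0.81 (SE 0.09) and 1.24 (SE 0.09). Nlrc3 fell from 6.22 ± 0.762 to 0.0997 ± 0.0677 and 0.0724 ± 0.0919 CPM.

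Of 27 targets outside the pathway 14 rose and 9 fell in BM-E, and 14 rose and 7 fell in BM-M. Gadd45b, a stress response gene, rose from 9.43 ± 0.492 to 69.8 ± 0.928 and 87.9 ± 3.72 CPM, and Slfn2 from 13.7 ± 3.35 to 64.7 ± 6.05 and 107 ± 5.05. Saa3, an acute phase protein, rose from 0.123 ± 0.0421 to 7.69 ± 0.103 and 32.8 ± 2.59 CPM. Bcl2, a survival factor, fell from 48.5 ± 5.79 to 11.2 ± 0.494 and 11.8 ± 0.699 CPM. Between the leukemic phases 8 of 102 pathway genes rose and 2 fell, of which 5 and 2 were targets. That is 9.80% called, against 2.48% of all genes (1.48% higher and 0.997% lower). Without HPC 3 the count was 14 higher and 3 lower. Without BM-E 1, BM-E 2, BM-M 1 or BM-M 2 it was 4 higher and 1 lower, and without BM-E 3 it was 3 and 1. Without BM-M 3, 6 were higher and 1 lower.

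**Figure D5:**
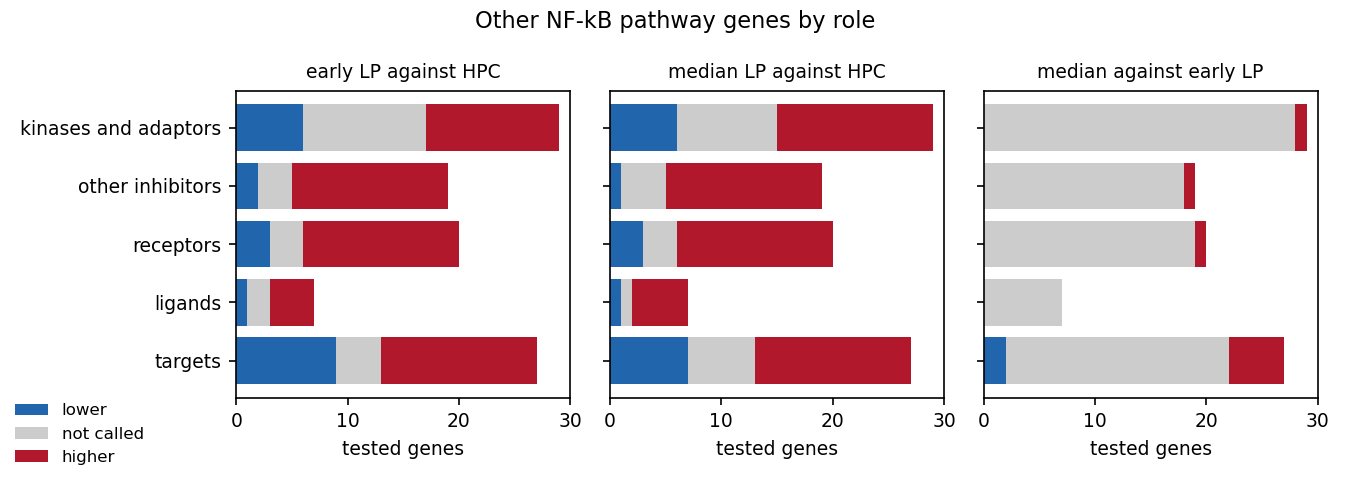
Number of tested genes (horizontal axis) in 5 role lists by outcome of the test (bar colours), for early leukemic progenitors against HPC, median against HPC, and median against early. Receptors were higher in 14 of 20 cases against HPC in both phases, where 35.3% and 36% of all genes were higher. Between the leukemic phases 10 of 102 genes were called, against 2.48% of all genes.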

How the data were processed

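The members and gene lists were chosen with earlier results of these data known. The authors deposited FPKM and estimated counts for each RefSeq transcript, per the file headers. The submitters' processing notes list TopHat2 2.0.6 and mm10; the quantifier is not stated there. Transcripts were summed by gene symbol (21388 transcripts, 16537 genes). The deposited estimated counts were rounded and tested with edgeR 4.0.16 (R 4.3.3): TMM, filterByExpr (12837 genes kept), 1 coefficient per group over 9 libraries, two-sided quasi-likelihood F test, Benjamini-Hochberg adjustment over the genes kept, threshold 0.05. The SE is the size of the log2 change divided by the square root of F. Low values fell on multiples of a fixed step in each library (89.7 to 91.3% within 0.05 of a whole number), which gave recovered fragments. The fit was tested on simulated data. Coordinates are the table's, counted from 1. Outside the members, each role list named up to 4 genes with the smallest adjusted p in BM-E against HPC and up to 2 of those called between the phases. Alternatives were DESeq2 1.42.0, limma 3.58.1 on log2(FPKM + 1) and log2(FPKM + 0.1), other scalings, no filter, recovered fragments, only the groups compared, a replicate block, the main transcript, and each library left out.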

Additional observations from a re-analysis of the deposited data

Results flagged for a closer look

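Changes against HPC differed between the leukemic phases for 7 of the named pathway genes, by edgeR's test of BM-M against BM-E itself. Of these, Irak2, Zc3h12a, Tlr2, Saa3 and Mmp9 were named because they were called in that test, so the count largely follows from the naming rule. No member was among the 7. Irak2 was higher in BM-M by 0.92 (SE 0.14, adjusted p = 0.00520) on the log2 scale and Saa3 by 2.09 (SE 0.10, adjusted p = 1.60e-06), each in 3 of 3 libraries. Zc3h12a differed by 0.43 (SE 0.09, adjusted p = 0.0257), a call that was lost without BM-E 2, BM-E 3, BM-M 2 or BM-M 3 (adjusted p = 0.0696 to 0.133). Tlr2 differed by 0.56 (SE 0.12, adjusted p = 0.0309), which was lost without BM-E 1, BM-E 2, BM-E 3, BM-M 1 or BM-M 2 (adjusted p = 0.0771 to 0.157). Gadd45b differed by 0.33 (SE 0.06, adjusted p = 0.0135), lost without BM-E 1, BM-E 2, BM-E 3, BM-M 1 or BM-M 2 (adjusted p = 0.0506 to 0.0992). Slfn2 differed by 0.73 (SE 0.13, adjusted p = 0.0129), lost without BM-E 1, BM-E 3 or BM-M 1 (adjusted p = 0.0521 to 0.0675). Mmp9 was lower in all 3 BM-M libraries, with a log2 difference of -1.84 (SE 0.20, adjusted p = 0.00112), and against HPC its change in BM-E, 0.35 (SE 0.19) and not called, passed the threshold without HPC 3 (0.58, adjusted p = 0.00776). Of the 6 neutrophil markers 2 also fell between the phases, and Ltf stood at 168 ± 20.7 CPM in BM-E and 54.8 ± 8.17 in BM-M. The part of this in the fall of Mmp9 was not tested.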

How the results depend on the processing

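Against HPC the 6 called members kept their direction and call in all 20 alternatives of both comparisons, and no result reversed. Members that gained a call under some alternative were Nfkb1 in BM-E and Rel, Nfkbia and Tnfaip3 in BM-M. Correlations of deviations between libraries of the same replicate number in different groups ran from -0.213 to 0.115. Between libraries of different numbers they ran from -0.218 to 0.218. These values showed no pairing by replicate number, but with 3 libraries per group they cannot exclude it. With the replicate block, Nfkbia (0.37, adjusted p = 0.0312) and Tnfaip3 (0.26, adjusted p = 0.0350) were called in BM-M. Rel was called there by DESeq2 (adjusted p = 0.0409) and with only the groups compared (adjusted p = 0.0446). Pathway genes higher in BM-M than in BM-E numbered 13 by DESeq2, 5 by limma on log2(FPKM + 1) and 4 on log2(FPKM + 0.1), against 8. With only the main transcript, 1 was lower, against 2. Leaving out 1 library gave 3 to 14 higher and 1 to 3 lower. With counts over the longest transcript in place of FPKM, Nfkb1 held 50.5% of the Rel family in HPC, 53.9% in BM-E and 50.04% in BM-M, and Nfkb2 8.05%, 11.2% and 13.0%. Rela then held 37.6% in HPC and 29.8% in BM-M, and Relb 1.01% and 3.15%. The cause of these differences was not tested. Depth limits Bcl3 most, with 5 to 19 fragments per PML-RAR library.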
